A study of Mus musculus with 9 samples.

Results

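Natural killer cells (NK) were compared with conventional dendritic cells (CDC) in spleen and lymph node together, using the 6 arrays titled NK or CDC among the 9 of the series. Each cell type had 2 spleen arrays and 1 lymph node array. Spleen array 1, spleen array 2 and the lymph node array of NK were matched to the CDC array of the same organ and number, which gives 3 pairs. The genes described are those whose NK minus CDC difference has the same sign in all 3 pairs. They number 6472 of the 10916 genes tested, of which 3508 were above CDC in every pair (32.1% of tested genes) and 2964 below (27.2%). Without a filter on low levels, 8838 of 18193 genes had 1 sign in all pairs.

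The donors were naive BALB/c mice, 6 to 8 weeks old, and the cells were sorted fresh, with no culture or treatment named. Total RNA was extracted with TRIzol and RNeasy, and biotinylated cRNA was prepared from 6 µg of it for Affymetrix arrays. The labels used here name neither the surface markers of the sort, nor whether animals were pooled, nor which animals a replicate came from. The p-values therefore measure only the spread between these arrays.

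NK cells are innate lymphocytes that kill infected or transformed cells without prior priming. They read the balance of activating and inhibitory receptors on a target, release perforin and granzymes from cytotoxic granules, and secrete interferon gamma when stimulated by several interleukins made by dendritic cells. Conventional dendritic cells take up antigen, sense microbial products through pattern recognition receptors and present peptides on class II molecules to CD4+ T cells, together with costimulatory ligands. Spleen and lymph node hold both cell types, and each makes cytokines for which the other has receptors.

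Levels are log2 normalized intensities of 1 probe set per gene, and NK minus CDC is a log2 difference with its standard error. Values of 3 arrays or pairs are always given in the order spleen 1, spleen 2 and lymph node. A gene is called when its adjusted p from limma, over all tested genes and with organ as a term, is under 0.05. Where 1 or more of the 3 arrays of the lower cell type lie under 5.31, the level of the filter, those arrays are set to it and the fold is a lower bound, written "at least". The log2 difference beside such a fold is the fitted one, from the values as measured. Arrays named after "without" were left out 1 at a time. Without either lymph node array, the organ term takes up the other one and the difference is that of spleen alone. Leaving out the lymph node NK array or the lymph node CDC array is thus the same estimate, and not a separate dependence on each. Of the genes given such a fold without their levels, 2 of the 3 arrays were under it in Abca3, Ccr9, Cd200r4, Cd209a, Cd247, Cd80, Crtam, Gpr34, Irf4, Klrb1a, Lat, Tifa and Tlr13, 1 of 3 in Bcl11a, Bcl11b, Cd96, Dnase1l3, Ebi3, Fasl, Gzmm, H2-Ob, Il18, Il18r1, Jakmip1, Klre1, Oas2 and Thy1, and all 3 in the others. Levels of different probe sets are not compared, since each has its own response.

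The 6 arrays had median deposited intensities of 28.5 to 41.3 and 3' to 5' actin ratios of 1.11 to 2.35. Across genes, arrays of 1 cell type correlated at 0.891 to 0.948, lymph node with spleen included, and NK with CDC arrays at 0.708 to 0.778. These values only describe the arrays, since genes are no independent replicates. Xist, which coats the inactive X chromosome, read 6.36, 11.96 and 12.19 in NK and 6.02, 12.48 and 12.05 in CDC, and the Y-linked Eif2s3y read 9.40, 3.65 and 3.29 in NK and 8.996, 4.28 and 2.76 in CDC. In both genes the 2 arrays of spleen pair 1 were alike and stood apart from the other 4. Each pair thus matches arrays of 1 kind, and the 2 spleen arrays of a cell type did not hold the same RNA. By these genes spleen pair 1 read as male and the other 4 arrays as female. Spleen therefore holds both kinds and lymph node only 1, so the comparison of organs is not balanced for it.

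NK and CDC differed in a large share of the genes. The test called 2630 of the 10916 genes (24.1%), of which 1362 were higher in NK (12.5%) and 1268 lower (11.6%). At an unadjusted p under 0.05 the count was 3886. Of the called genes 2629 had the same sign in all 3 pairs and 2477 had no overlap between the 3 NK and the 3 CDC arrays. Over all tested genes, NK lay above CDC with no overlap in 19.7% and below in 17.2%. Sign and overlap come from the same arrays as the call, so in called genes they largely follow from it and are no added support. The exception in sign was Rhoc, with NK minus CDC at 3.53, 3.49 and -0.09 in the 3 pairs. Rhoc lost its call without any 1 of spleen NK array 1, spleen NK array 2, spleen CDC array 1 and spleen CDC array 2 (adjusted p = 0.102 to 0.138). By the fitted difference, more called genes were over 16-fold lower in NK (137) than over 16-fold higher (95). The median over all tested genes was 0.04. Cells were measured in bulk, so fewer cells with a transcript and less of it per cell cannot be told apart. Of 1174 called genes that had further probe sets in the same gene, all further probe sets had the same sign in 1095.

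The 12 largest differences in each direction are plotted by array, and in each of these 24 genes the NK and CDC arrays did not overlap. These genes were picked by sign and size on the same arrays, so the lack of overlap largely follows from that choice. S1pr5, the sphingosine 1-phosphate receptor that lets NK cells leave lymphoid organs, read 10.23, 11.92 and 10.88 in NK and 3.82, 3.19 and 5.16 in CDC. It had the largest of all called differences (6.96 ± 0.54 SE, adjusted p = 0.000126) and was at least 52.1-fold higher in NK, with every CDC array under the filter level. Cd2, an adhesion and costimulatory receptor of lymphocytes, read 11.06, 11.14 and 11.09 in NK and 4.64, 4.49 and 5.37 in CDC. The NK arrays of Cd2 lay close together in both organs, and it was at least 54.4-fold higher (6.26 ± 0.24 SE, adjusted p = 2.86e-05). Jakmip1, which encodes a microtubule-binding protein, was at least 38.5-fold higher (6.00 ± 0.82 SE, adjusted p = 0.00183), its CDC level being lowest on spleen array 2.

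On the other side, Havcr2, the gene for TIM-3, an inhibitory receptor, read 4.57, 4.44 and 3.57 in NK and 10.73, 11.20 and 10.47 in CDC. All NK arrays were under the filter level and the difference was -6.61 ± 0.23 SE (adjusted p = 2.86e-05), at least 45.1-fold lower in NK. Ppfia4, of the liprin family, read 3.52, 3.13 and 3.72 in NK and 9.90, 9.50 and 10.35 in CDC, and Rab30, a small GTPase of the Golgi, 3.23, 3.05 and 3.10 in NK and 9.32, 9.65 and 9.30 in CDC. Both had all 3 NK arrays under the filter level, and they were at least 24.4-fold and at least 17.3-fold lower. Dnase1l3, a secreted nuclease that digests chromatin, was at least 42-fold lower (-5.97 ± 0.71 SE, adjusted p = 0.000967). Mmp12, the macrophage metalloelastase, was at least 18-fold lower (-5.92 ± 0.49 SE, adjusted p = 0.000169), and Tbc1d9, a predicted Rab GTPase-activating protein, at least 25.4-fold lower (-6.10 ± 0.32 SE, adjusted p = 3.79e-05).

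**Figure D1:**
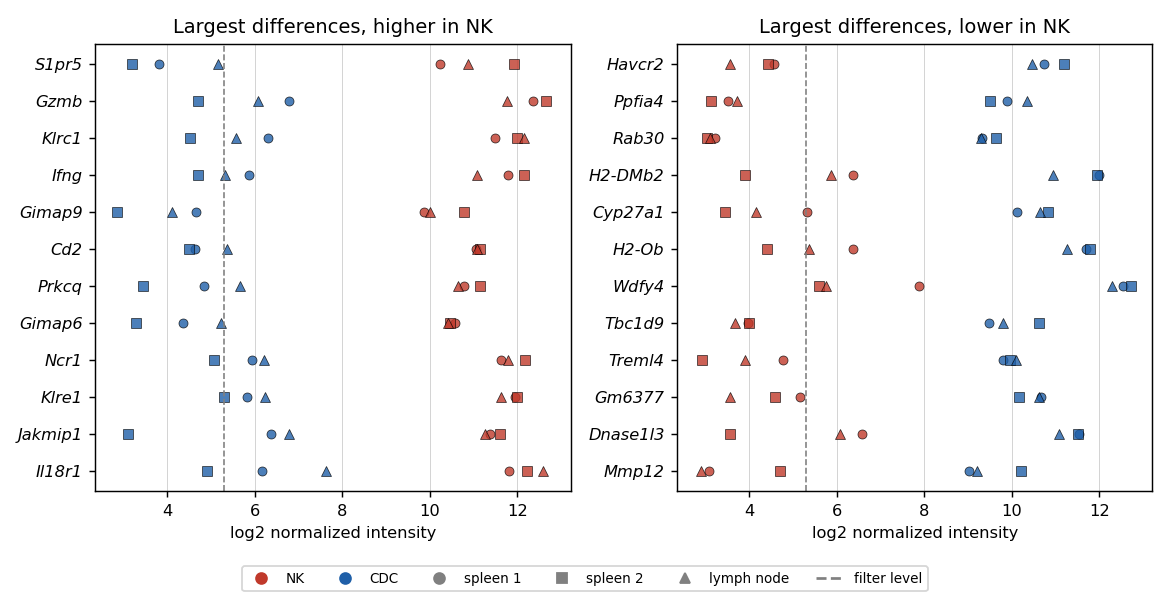
Log2 normalized intensity (x axis) of the 12 genes with the largest called difference higher in NK (left) and lower in NK (right), 1 point per array. Red marks NK and blue CDC, circles spleen array 1, squares spleen array 2 and triangles lymph node; the dashed line is the filter level of 5.31. The red and blue points of each gene are separate in both organs, and the lower cell type often lies at or under the filter level.

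NK receptor genes were higher in NK as a group. Of 16 tested members 15 were called higher and none lower, and all 16 lay above CDC in every pair without overlap. The list's median difference was 3.77, and 3.60, 3.93 and 3.66 in the 3 pairs. Klrc1, the gene for NKG2A, an inhibitory receptor of the C-type lectin type, read 11.50, 11.99 and 12.15 in NK and 6.31, 4.52 and 5.58 in CDC. NK exceeded CDC on every array and Klrc1 was at least 70.8-fold higher (6.41 ± 0.44 SE, adjusted p = 8.49e-05). Klrd1, which encodes CD94, its partner chain, read 12.55, 12.65 and 12.53 in NK and 9.13, 9.03 and 9.28 in CDC and was 10.7-fold higher (3.42 ± 0.16 SE, adjusted p = 2.9e-05). Klrk1, the gene for NKG2D, a receptor of stress ligands, read 10.10, 9.91 and 10.74 in NK and 6.75, 6.79 and 7.84 in CDC. It was 8.71-fold higher (3.12 ± 0.20 SE, adjusted p = 6.66e-05).

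Ncr1, which encodes the activating receptor NKp46, read 11.63, 12.17 and 11.79 in NK and 5.94, 5.06 and 6.22 in CDC. The pair differences were 5.69, 7.11 and 5.57 (adjusted p = 3.73e-05), so that the lymph node pair lay near spleen pair 1. Klre1, an orphan lectin-like receptor, was at least 67.1-fold higher (6.07 ± 0.28 SE, adjusted p = 2.9e-05) and Klrb1a, of the NKR-P1 family, at least 24-fold higher (5.22 ± 0.42 SE, adjusted p = 0.000144). Klrg1, an inhibitory receptor of mature NK cells that binds cadherins, read 12.19, 12.32 and 10.92 in NK and 7.10, 6.51 and 6.93 in CDC, and was 31.2-fold higher (4.97 ± 0.33 SE, adjusted p = 8.08e-05). Cd96 and Crtam, receptors of nectin-like ligands, were at least 17.5-fold and at least 8.84-fold higher. Fcgr3, the low-affinity Fc receptor CD16, which dendritic cells also express, read 9.11, 8.99 and 8.78 in NK and 6.10, 6.74 and 7.72 in CDC and was 4.3-fold higher (2.11 ± 0.36 SE, adjusted p = 0.00519). Klra7, Klrb1a, Klrb1f and Klrc1 belong to multigene families whose probe sets can cross-hybridise, so single members are uncertain.

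The promoters of NK receptor genes were searched because these genes were higher together. The RefSeq windows on GRCm38.p6 run from 250 bases before to 50 after a transcript start, and some windows of 1 gene overlap. The RUNX letters TGTGGTT, on either strand, were in 41.2% of the 17 windows of the 12 called receptor genes that had a window, in 5 of the genes, against 5.27% of all 32851 windows. Over the windows of all genes called higher the share was 4.99%, and of all called lower 3.98%. Among 13 windows of cytotoxic granule genes it was 23.1%. A match is a description of letters, not a site. The T-box letters GGTGTGA were in 30.8% of those 13 windows, 5.88% of the 17 receptor windows, 3.17% of the windows of all genes called higher and 3.98% of all windows. The ETS letters CAGGAAG were in 30.8% of the 13 granule windows, 5.88% of the 17 receptor windows, 14.1% of the windows of all genes called higher and 13.3% of all windows. Matches of different motifs may overlap. The windows of Ncr1, Klrk1, Cd96, Gzmb and Gzma are printed as examples of receptor and granule genes, chosen among the windows that hold the RUNX letters. Capitals mark the RUNX letters or their reverse complement AACCACA, and each sequence runs 5′ to 3′ along the gene's strand of the reference genome, ending 10 bases after the start. The letters begin 176 bases before the start in Ncr1 (chr7:4337539-4337724 on the plus strand), 129 in Klrk1 (chr6:129623855-129624024 on the minus strand), 29 in Cd96 (chr16:46120239-46120408 on the minus strand), 34 in Gzmb (chr14:56262325-56262494 on the minus strand) and 51 in Gzma (chr13:113100972-113101141 on the minus strand).
Ncr1: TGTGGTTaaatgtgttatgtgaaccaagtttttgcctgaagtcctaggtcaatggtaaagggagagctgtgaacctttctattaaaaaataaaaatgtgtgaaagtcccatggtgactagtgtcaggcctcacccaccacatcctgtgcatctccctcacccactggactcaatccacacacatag
Klrk1: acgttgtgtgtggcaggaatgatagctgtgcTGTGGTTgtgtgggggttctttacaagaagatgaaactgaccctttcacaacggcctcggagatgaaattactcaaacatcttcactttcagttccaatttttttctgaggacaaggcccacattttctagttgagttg
Cd96: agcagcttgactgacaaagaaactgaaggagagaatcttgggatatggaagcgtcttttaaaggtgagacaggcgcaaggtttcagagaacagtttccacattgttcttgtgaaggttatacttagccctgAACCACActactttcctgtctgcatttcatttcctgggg
Gzmb: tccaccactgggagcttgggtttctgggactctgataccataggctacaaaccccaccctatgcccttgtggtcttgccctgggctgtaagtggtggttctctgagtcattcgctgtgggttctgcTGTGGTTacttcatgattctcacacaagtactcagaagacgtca
Gzma: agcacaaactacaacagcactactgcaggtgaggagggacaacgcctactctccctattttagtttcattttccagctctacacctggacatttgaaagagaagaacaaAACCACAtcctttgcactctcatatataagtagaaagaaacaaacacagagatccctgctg

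Genes that carry signals from these receptors followed the same split. Of 19 adaptors and proximal kinases of lymphocytes, 14 were called higher in NK and 1 lower, with a median of 2.44, and 2.41, 2.61 and 2.45 in the 3 pairs. In the lymphocyte kinase list the 1 called lower became 2 without the lymph node NK array or the lymph node CDC array. Prkcq, protein kinase C theta, read 10.77, 11.16 and 10.64 in NK and 4.83, 3.44 and 5.67 in CDC and was at least 43-fold higher (6.21 ± 0.49 SE, adjusted p = 0.000135). Zap70, the kinase that binds phosphorylated ITAM motifs, read 9.83, 9.60 and 10.37 in NK and 6.07, 4.13 and 5.58 in CDC. Its arrays did not overlap and it was at least 19.4-fold higher (4.67 ± 0.46 SE, adjusted p = 0.000393). Cd247, the zeta chain that bears those motifs, was at least 21.5-fold higher, Lat, the membrane scaffold, at least 13.1-fold higher, Sh2d1a, the adaptor SAP, at least 12.6-fold higher and Txk, a Tec kinase, at least 16.9-fold higher. Hcst, the gene for DAP10, which pairs with NKG2D, was 4.73-fold higher (2.24 ± 0.21 SE, adjusted p = 0.000331). Themis2 was the member called lower, 19.9-fold (-4.31 ± 0.24 SE, adjusted p = 4.45e-05); it is a scaffold of B cells and myeloid cells.

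In the list of 15 kinases and adaptors typical of myeloid and B cells, none was called higher and 7 were called lower. Rasgrp3, an activator of Ras, read 5.18, 5.502 and 4.41 in NK and 10.73, 10.65 and 10.80 in CDC and was at least 40.8-fold lower (-5.69 ± 0.27 SE, adjusted p = 2.92e-05). Btk, the Tec kinase of B cells and myeloid cells, read 4.38, 5.98 and 5.03 in NK and 8.89, 9.09 and 9.24 in CDC and was at least 11.6-fold lower (-3.94 ± 0.40 SE, adjusted p = 0.000484). Fgr, a Src family kinase, was 6.49-fold lower and Skap2, an adaptor for integrin signalling, 5.21-fold lower. Skap1, its relative in T cells, was 17.6-fold higher, so that the 2 paralogs were called in opposite directions. Syk, the ITAM kinase shared by both lineages, was not called, at 0.14 ± 0.19 SE with a 95% interval of -0.31 to 0.59.

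Cytotoxic granule genes and death ligands had 13 of 22 members called higher and 1, Lamp2, called lower, with a median of 1.46, and 1.87, 1.60 and 1.37 in the 3 pairs. Gzmb, granzyme B, read 12.37, 12.66 and 11.76 in NK and 6.78, 4.70 and 6.08 in CDC, and was at least 74-fold higher (6.41 ± 0.52 SE, adjusted p = 0.000148). Prf1, which encodes the pore-forming perforin, read 11.46, 12.18 and 10.98 in NK and 6.20, 5.99 and 5.66 in CDC. Neither gene overlapped between cell types, and Prf1 was 48.3-fold higher (5.59 ± 0.25 SE, adjusted p = 2.88e-05). Fasl, the ligand of the death receptor Fas, was at least 59.8-fold higher, Ctsw, the protease cathepsin W, 35.5-fold higher, and Nkg7, a granule membrane protein, 31.4-fold higher. Gzma and Gzmk, which lie side by side in the genome, were 18.3-fold and at least 11.6-fold higher. Gzmm, granzyme M, was at least 3.06-fold higher (1.64 ± 0.35 SE, adjusted p = 0.0134). Ctsd, a lysosomal protease, was 9.46-fold higher (3.24 ± 0.17 SE, adjusted p = 3.73e-05), while the granule proteoglycan gene Srgn, which both cell types use, differed by 0.08 ± 0.13 SE and was not called. Lamp2, a lysosome membrane protein, was 1.96-fold lower (-0.97 ± 0.19 SE, adjusted p = 0.00891).

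Cytokine and chemokine genes were divided between the cell types, and several ligands were higher in 1 type while their receptor was higher in the other. Of 15 cytokines 4 were called higher in NK and 4 lower. Ifng, interferon gamma, read 11.80, 12.15 and 11.08 in NK and 5.88, 4.70 and 5.31 in CDC and was at least 72.3-fold higher (6.38 ± 0.36 SE, adjusted p = 4.45e-05). Ifngr2, the signalling chain of its receptor, read 5.62, 5.39 and 5.62 in NK and 7.37, 7.29 and 7.83 in CDC and was 3.87-fold lower (-1.95 ± 0.24 SE, adjusted p = 0.00106), while Ifngr1, the binding chain, was not called (95% interval -0.93 to 1.04). Xcl1, a chemokine that attracts cross-presenting dendritic cells, read 10.38, 9.40 and 10.39 in NK and 6.75, 4.29 and 4.98 in CDC, and Xcr1, its receptor, 4.76, 5.03 and 4.57 in NK and 7.91, 9.22 and 9.59 in CDC. Each was separate between the cell types, Xcl1 at least 19.2-fold higher (4.72 ± 0.62 SE, adjusted p = 0.00156) and Xcr1 at least 12.1-fold lower (-4.12 ± 0.42 SE, adjusted p = 0.000486). Il18, an activator of NK cells, was at least 7.05-fold lower in NK (-2.90 ± 0.29 SE, adjusted p = 0.000455). Both chains of its receptor were higher, Il18r1 at least 57.4-fold and Il18rap 34.1-fold.

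Cxcl9, a chemokine induced by interferon gamma, read 3.46, 6.81 and 4.27 in NK and 10.20, 10.29 and 11.55 in CDC. It was at least 29.2-fold lower in NK (-5.83 ± 0.83 SE, adjusted p = 0.00216), with the largest gap in the lymph node. Ccl3 and Ccl4, which attract monocytes and T cells, were 14.5-fold and 11.9-fold higher, and Ccl5 2.85-fold higher (1.51 ± 0.30 SE, adjusted p = 0.0102). Il1b, interleukin 1 beta, was 27.3-fold lower, and Ebi3, a subunit of several interleukins, at least 12.9-fold lower (-4.19 ± 0.45 SE, adjusted p = 0.000574). Osm, oncostatin M, was 4.96-fold higher (2.31 ± 0.38 SE, adjusted p = 0.0041), and Il6st, the gp130 chain through which it signals, 6.51-fold lower (-2.70 ± 0.36 SE, adjusted p = 0.00163). Il15, which sustains NK cells, was 2.15-fold lower in NK (-1.10 ± 0.32 SE, adjusted p = 0.0451). Il15 lost its call without any 1 of spleen NK array 1, the lymph node NK array, spleen CDC array 1 and the lymph node CDC array (adjusted p = 0.109 to 0.212). Csf2, which encodes GM-CSF, was at least 1.52-fold higher (2.67 ± 0.80 SE, adjusted p = 0.0481), and Csf2 lost its call without any 1 of spleen NK array 1, the lymph node NK array, spleen CDC array 1, spleen CDC array 2 and the lymph node CDC array (adjusted p = 0.0836 to 0.229).

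Among 21 receptors and kinases listed for the common gamma chain and IL-12 families and other cytokines, 9 were called higher in NK and 2 lower. Those lower were Il6st and Ifngr2, the latter of the interferon gamma receptor. The median was 0.58, and 0.89, 0.91 and 0.48 in the 3 pairs. Il2rb, the beta chain for interleukin 2 and interleukin 15, read 10.60, 10.32 and 10.66 in NK and 5.88, 4.37 and 5.31 in CDC. It was at least 32.6-fold higher (5.34 ± 0.38 SE, adjusted p = 9.72e-05). Il12rb1, a chain of the interleukin 12 receptor, was at least 2.52-fold higher (1.85 ± 0.29 SE, adjusted p = 0.00332), and Il27ra 6.35-fold higher. Jak1, a kinase of the common gamma chain receptors, was 5.63-fold higher (2.49 ± 0.32 SE, adjusted p = 0.00129). Il15ra, which presents interleukin 15, was not called, at 0.41 ± 0.43 SE.

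Haematopoietic growth factor receptors had none of 11 members called higher and 7 called lower. Flt3, the receptor on which dendritic cell development depends, read 5.61, 5.22 and 5.77 in NK and 10.90, 11.25 and 10.84 in CDC. It was at least 43.3-fold lower in NK (-5.47 ± 0.24 SE, adjusted p = 2.86e-05) and did not overlap. Csf2ra, the GM-CSF receptor alpha chain, was 18.7-fold lower and Csf2rb, its beta chain, 9.08-fold lower. Csf1r, the M-CSF receptor, was 9.67-fold lower (-3.27 ± 0.60 SE, adjusted p = 0.00714) and Kit, the stem cell factor receptor, 3.9-fold lower (-1.96 ± 0.39 SE, adjusted p = 0.0103).

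Transcription factors separated the lineages in both directions. Of 26 factors linked to NK and T cells 18 were called higher and none lower, with a median of 2.13, and 1.495, 2.44 and 2.45 in the 3 pairs. Gata3 read 7.98, 9.16 and 9.34 in NK and 2.85, 2.95 and 3.11 in CDC and was at least 11.4-fold higher (5.85 ± 0.37 SE, adjusted p = 6.83e-05). Eomes, a T-box factor that NK maturation needs, read 11.98, 12.29 and 11.70 in NK and 7.54, 5.97 and 7.16 in CDC and was 34.4-fold higher. Tbx21, the other such factor, read 11.38, 11.65 and 11.53 in NK and 7.86, 7.29 and 6.93 in CDC and was 17.9-fold higher. Ets1, which NK development also needs, was 34.5-fold higher (5.11 ± 0.22 SE, adjusted p = 2.86e-05). Stat4, which carries the signal of the interleukin 12 receptor, was 13.3-fold higher, Smad3, a TGF-beta effector, 13.4-fold higher and Tox at least 6.57-fold higher. Bcl11b and Lef1, better known from T cells, were at least 7.78-fold and at least 8.05-fold higher. Stat5a and Stat5b, which signal below interleukin 15 in many cell types, were not called, with 95% intervals of -0.64 to 0.70 and -0.65 to 0.64.

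Of 24 factors linked to conventional dendritic cells 15 were called lower in NK and 2 higher, with a median of -1.66, and -1.32, -1.86 and -1.56 in the 3 pairs. In the dendritic cell factor list the 2 called higher became 1 without spleen NK array 2, the lymph node NK array, spleen CDC array 2 or the lymph node CDC array. Zbtb46, a factor largely restricted to conventional dendritic cells, read 4.86, 5.24 and 6.10 in NK and 8.76, 8.63 and 8.86 in CDC. It was at least 9.05-fold lower (-3.35 ± 0.27 SE, adjusted p = 0.000142). Batf3, needed by the cross-presenting subset, read 5.70, 4.90 and 4.89 in NK and 10.07, 10.03 and 10.18 in CDC and was at least 25.1-fold lower (-4.93 ± 0.27 SE, adjusted p = 4.45e-05). Mycl, a Myc family factor of dendritic cells, was at least 10.1-fold lower, Irf4 at least 8.2-fold lower, Spi1, the gene for PU.1, 16.1-fold lower and Bcl11a at least 14.7-fold lower. The members called higher were Cebpb (3.42-fold; 1.77 ± 0.29 SE, adjusted p = 0.00425) and L3mbtl3 (2.38-fold). L3mbtl3 lost its call without any 1 of spleen NK array 2, the lymph node NK array, spleen CDC array 2 and the lymph node CDC array (adjusted p = 0.0559 to 0.11). Id2, required by both lineages, read 11.89, 12.16 and 12.38 in NK and 11.76, 11.17 and 11.96 in CDC and was not called (0.51 ± 0.19 SE, 95% interval 0.06 to 0.96). Irf8, also needed by dendritic cells, read 12.13, 12.42 and 11.06 in NK and 12.42, 12.15 and 12.57 in CDC and was not called (-0.51 ± 0.30 SE, 95% interval -1.21 to 0.19).

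**Figure D2:**
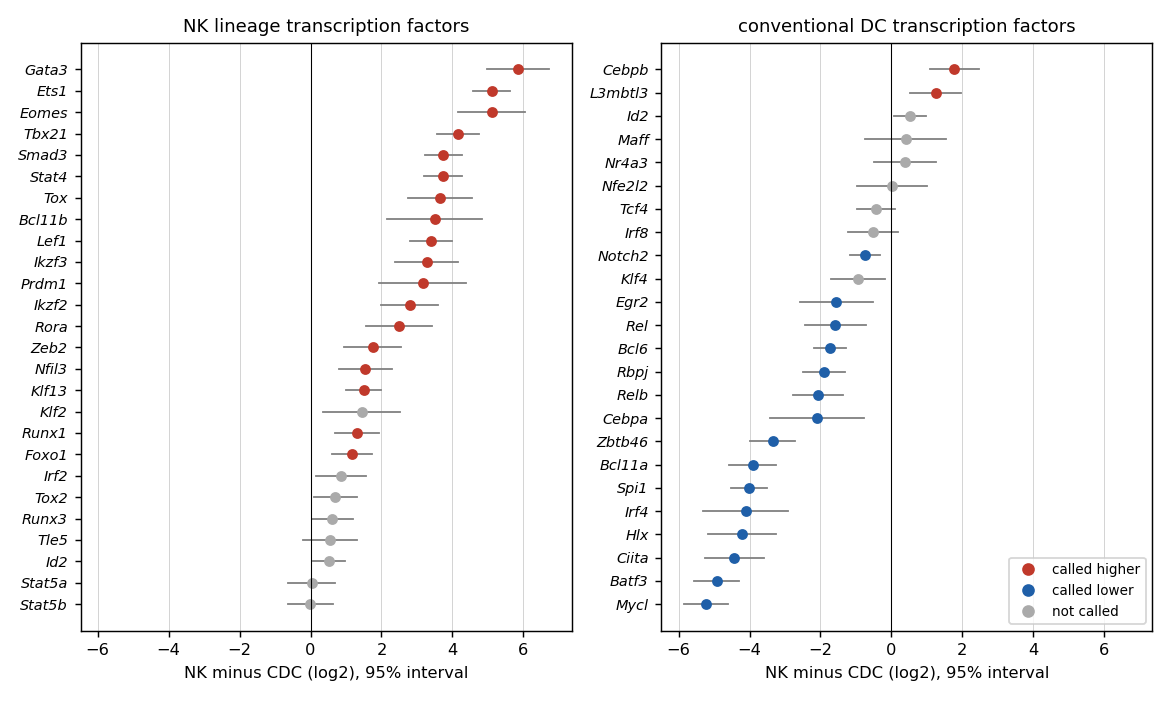
NK minus CDC on the log2 scale (x axis) for each tested transcription factor of the NK list (left) and the conventional dendritic cell list (right), with the 95% interval of limma over 6 arrays. Red marks factors called higher in NK, blue called lower and grey not called; Id2 is in both lists, and Id2 and Irf8 have intervals close to or across 0.

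Class II presentation was the list with the most negative median of those plotted. Of 19 tested members 16 were called lower in NK and none higher, and the median was -4.22, and -3.08, -5.24 and -4.18 in the 3 pairs. H2-DMb2, a chain of the peptide-loading chaperone H2-M, read 6.37, 3.91 and 5.86 in NK and 12.003, 11.94 and 10.94 in CDC. It was at least 55-fold lower (-6.25 ± 0.63 SE, adjusted p = 0.000462). H2-Ob, a chain of the inhibitor H2-O, was at least 59.4-fold lower and H2-Oa, its partner, 18.7-fold lower. Cd74, the invariant chain, read 9.68, 7.18 and 8.74 in NK and 12.82, 13.09 and 12.92 in CDC, and was 21.2-fold lower (-4.41 ± 0.56 SE, adjusted p = 0.00129). Ciita, the class II transactivator, read 4.83, 4.62 and 5.26 in NK and 9.53, 9.86 and 8.60 in CDC, with every NK array under the filter level, and was at least 16.2-fold lower (-4.43 ± 0.36 SE, adjusted p = 0.000148). Ctsh, a cysteine protease, was 48.4-fold lower, Marchf1, the ubiquitin ligase that sends class II to lysosomes, at least 15.9-fold lower and Ifi30, the lysosomal thiol reductase, 33.2-fold lower. Of the RFX complex, which binds class II promoters, Rfx5 was called lower (-1.45 ± 0.33 SE, adjusted p = 0.0175), while Rfxank at 0.68 ± 0.23 SE and Rfxap at -0.18 ± 0.23 SE were not called. Rfx5 lost its call without either spleen NK array (adjusted p of at most 0.0523 in limma). Class II genes form a multigene family, and their probe sets can cross-hybridise.

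The surface chains varied among the NK arrays. H2-Aa, the class II A alpha chain, read 10.89, 6.62 and 9.60 in NK and 12.57, 12.84 and 11.99 in CDC, and the pair differences were -1.67, -6.22 and -2.40. Spleen NK array 1 was highest in H2-Aa and spleen NK array 2 lowest, yet all CDC arrays were above all NK arrays (-3.43 ± 0.96 SE, adjusted p = 0.0386). H2-Aa lost its call without any 1 of the lymph node NK array, spleen CDC array 1, spleen CDC array 2 and the lymph node CDC array (adjusted p = 0.074 to 0.0995). H2-Ab1, the A beta chain, read 9.32, 8.03 and 8.23 in NK and 12.88, 12.92 and 12.75 in CDC and was 20.04-fold lower (-4.33 ± 0.32 SE, adjusted p = 0.000106), while H2-Eb1, the E beta chain, was 22.4-fold lower (-4.48 ± 0.60 SE, adjusted p = 0.00168). Itgax, the gene for CD11c, read 11.32, 7.27 and 8.19 in NK and 11.89, 12.37 and 11.39 in CDC, so that spleen NK array 1 lay just under the lowest CDC array (pair differences -0.57, -5.10 and -3.21, adjusted p = 0.0482). Itgax lost its call without any 1 of spleen NK array 2, the lymph node NK array, spleen CDC array 1, spleen CDC array 2 and the lymph node CDC array (adjusted p = 0.0595 to 0.159). Spleen NK array 1 did not stand out in Flt3, or in Cd86, which read 6.48, 6.27 and 6.28 in NK and 10.36, 10.63 and 11.07 in CDC. Other genes lower in NK went both ways. This array was the highest NK array in H2-Ab1, Cd74, Wdfy4, Plbd1, Batf3, Cd207 and Treml4. It was the lowest in Zbtb46, Sirpa, Cd40 and Clec4a2. The part of dendritic cell RNA in these NK levels was not tested. Summed over the class II list, intensities were 9747 on spleen NK array 1, 4411 on spleen NK array 2 and 6762 on the lymph node NK array, against 62174 to 79377 on the CDC arrays. B cell and macrophage genes, which could bring class II transcripts, summed to 8563 to 10067 intensity units on the NK arrays and 7773 to 14510.3 on the CDC arrays, and 2349 to 7152 intensity units on the NK arrays and 11217 to 22023 on the CDC arrays, respectively; their part in these levels was not tested.

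**Figure D3:**
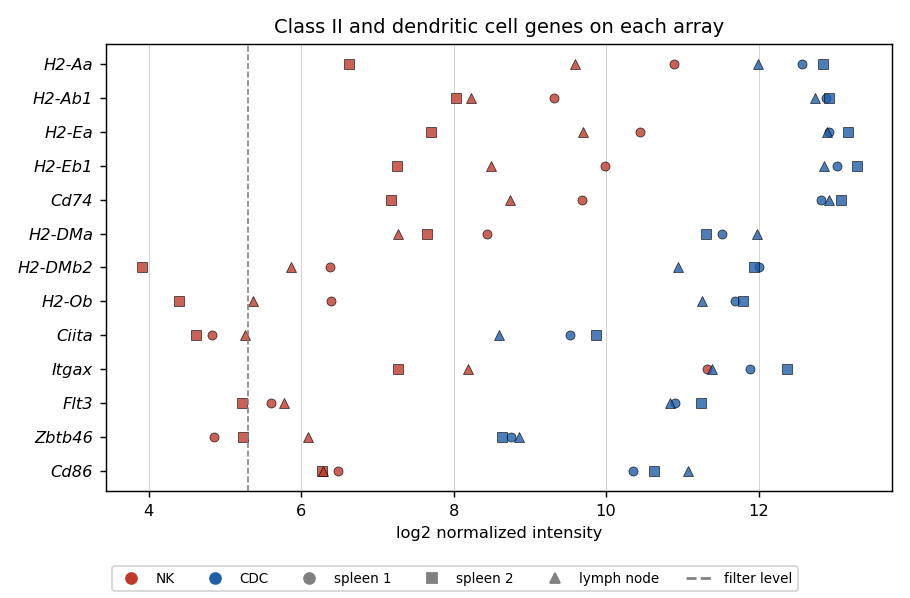
Log2 normalized intensity (x axis) of class II genes and of dendritic cell genes, 1 point per array, with colours and symbols by cell type and array and the filter level of 5.31 as a dashed line. Spleen NK array 1 (red circle) has the highest NK level in H2-Aa (10.89) and Itgax (11.32), but not in Flt3, where the lymph node NK array is highest (5.77).

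Promoters of the class II presentation list were searched for the cores of the X and Y boxes known from class II genes. The Y-box letters GATTGG, on either strand, were in 53.3% of the 15 windows of the 11 list members called lower that had a window. They were in 8 of these genes, against 16.1% of all 32851 windows and 18.4% of those of all genes called lower. The 11 genes include Rfx5, Ctss, Lgmn, Ifi30 and Marchf1, which encode no class II chain. Rfx5 and Marchf1 are among the 8 with a match. The match begins 4 bases before the start in Marchf1 and 199 in H2-DMa, so not every match has the place of a Y box. The X-box letters TAGCAAC were in 13.3% of the 15 windows and 3.66% of all, and overlap no Y-box match in the windows printed. The PU.1 letters GAGGAAGT, for the factor encoded by Spi1, were in 6.67% of the 15 windows, 4.28% of the windows of all genes called lower, 3.44% of those called higher and 3.2% of all. Windows of H2-Aa, H2-Eb1, H2-Ob, H2-Oa and H2-DMb2 are printed as examples, chosen among the windows that hold the Y-box letters, of genes that were called lower together and lie on chromosome 17. Capitals mark the Y-box and X-box letters, and each window ends 10 bases after the start of the RefSeq transcript on GRCm38.p6. The Y-box letters begin 49 bases before the start in H2-Aa (chr17:34287814-34287983 on the minus strand), 60 and 35 in H2-Eb1 (chr17:34305707-34305876 on the plus strand), 58 in H2-Ob (chr17:34238745-34238914 on the plus strand), 44 in H2-Oa (chr17:34092219-34092388 on the plus strand) and 91 in H2-DMb2 (chr17:34145089-34145258 on the plus strand). The X-box letters begin 93 bases before the start in H2-Eb1 and 89 in H2-Ob.
H2-Aa: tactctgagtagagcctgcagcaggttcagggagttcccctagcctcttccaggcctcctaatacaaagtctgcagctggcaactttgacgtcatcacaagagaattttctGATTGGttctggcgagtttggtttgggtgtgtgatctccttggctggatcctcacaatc
H2-Eb1: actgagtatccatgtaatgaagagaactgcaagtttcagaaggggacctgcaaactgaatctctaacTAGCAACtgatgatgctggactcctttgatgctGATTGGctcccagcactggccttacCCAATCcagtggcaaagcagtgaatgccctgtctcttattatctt
H2-Ob: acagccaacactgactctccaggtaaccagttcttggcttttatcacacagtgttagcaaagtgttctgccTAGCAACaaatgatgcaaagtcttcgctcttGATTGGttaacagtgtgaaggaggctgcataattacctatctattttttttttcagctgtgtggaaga
H2-Oa: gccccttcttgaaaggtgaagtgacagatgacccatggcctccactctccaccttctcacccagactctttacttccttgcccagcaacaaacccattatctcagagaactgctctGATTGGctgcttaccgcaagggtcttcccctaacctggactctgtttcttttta
H2-DMb2: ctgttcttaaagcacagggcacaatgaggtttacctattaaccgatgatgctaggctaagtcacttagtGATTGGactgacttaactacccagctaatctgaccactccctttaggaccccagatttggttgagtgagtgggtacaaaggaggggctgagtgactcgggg

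Class I presentation differed far less. Of 20 members 6 were called lower and none higher, with a median of -0.28, and -0.27, -0.23 and -0.37 in the 3 pairs. B2m, the light chain of all class I molecules, read 12.62, 12.78 and 12.87 in NK and 12.54, 12.68 and 12.70 in CDC and was not called (0.11 ± 0.13 SE, 95% interval -0.18 to 0.41). Wdfy4, which dendritic cells need to cross-present cell-associated antigen, read 7.88, 5.59 and 5.75 in NK and 12.55, 12.72 and 12.30 in CDC. It was 69.5-fold lower in NK (-6.12 ± 0.53 SE, adjusted p = 0.000213), the widest gap of that list. Psmb9, an immunoproteasome subunit, was 3.02-fold lower (-1.59 ± 0.21 SE, adjusted p = 0.00148). Tap1, a subunit of the peptide transporter, was called at -1.07 ± 0.24 SE, and Tap1 lost its call without any 1 of spleen NK array 2, the lymph node NK array, spleen CDC array 1 and the lymph node CDC array (adjusted p = 0.0662 to 0.0863). The count of 6 fell to 3 without spleen NK array 2 and without spleen CDC array 1.

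More genes for sensing microbes were called lower in NK than higher. Of 28 pattern recognition receptors and adaptors 14 were called lower and 3 higher, with a median of -0.93, and -1.08, -1.01 and -1.15 in the 3 pairs. In the pattern recognition list the 3 called higher became 1 without spleen NK array 1 or spleen NK array 2, and 0 without the lymph node NK array or the lymph node CDC array. Tlr3, a sensor of double-stranded RNA, read 5.03, 4.61 and 5.89 in NK and 10.09, 10.49 and 10.79 in CDC. It was at least 31.1-fold lower (-5.28 ± 0.25 SE, adjusted p = 2.9e-05). Tlr13, a sensor of bacterial ribosomal RNA, was at least 9.91-fold lower, Ly86, the MD-1 chain that pairs with Cd180, 36.2-fold lower, and Tifa, an adaptor for a bacterial sugar sensor, at least 15.4-fold lower. Unc93b1, the chaperone that brings endosomal receptors to their site, read 8.01, 7.73 and 7.45 in NK and 10.90, 11.01 and 10.84 in CDC and was 9.12-fold lower (-3.19 ± 0.19 SE, adjusted p = 5.54e-05). Myd88, the adaptor of most Toll-like receptors and of the interleukin 18 receptor, was not called (-0.34 ± 0.20 SE, 95% interval -0.80 to 0.12). The members called higher were Nod1 (1.48 ± 0.31 SE), Tlr4 (1.17 ± 0.31 SE) and Ddx58, the gene for RIG-I (1.01 ± 0.23 SE). Nod1 lost its call without any 1 of spleen NK array 2, the lymph node NK array, spleen CDC array 1 and the lymph node CDC array (adjusted p = 0.0515 to 0.0689); Tlr4 lost its call without any 1 of spleen NK array 1, spleen NK array 2, the lymph node NK array, spleen CDC array 2 and the lymph node CDC array (adjusted p = 0.0716 to 0.108); Ddx58 lost its call without any 1 of spleen NK array 1, the lymph node NK array and the lymph node CDC array (adjusted p = 0.0582 to 0.0876).

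Uptake receptors and paired myeloid receptors were mostly lower in NK. Of 19 lectins and uptake receptors 12 were called lower and none higher (median -2.02, and -1.43, -2.09 and -3.11 in the 3 pairs). Cd207, which encodes langerin, read 5.97, 3.71 and 5.17 in NK and 9.53, 10.28 and 11.09 in CDC, and Clec4a2, of the DCIR family, 4.24, 4.57 and 5.10 in NK and 10.01, 10.03 and 9.58 in CDC. They were at least 27.3-fold and at least 23.7-fold lower. Cd209a, a homolog of DC-SIGN, was at least 16.8-fold lower (-4.48 ± 0.39 SE, adjusted p = 0.000215). Of 17 SIRP, CD300 and paired myeloid receptors 10 were called lower and 1 higher (median -2.23, and -3.17, -2.32 and -1.41 in the 3 pairs). Treml4, a receptor for dying cells, read 4.78, 2.93 and 3.90 in NK and 9.79, 9.96 and 10.10 in CDC; it was at least 25-fold lower (-6.08 ± 0.45 SE, adjusted p = 0.000106). Sirpa, which binds CD47, read 5.55, 5.77 and 6.66 in NK and 10.25, 10.996 and 9.82 in CDC and was 20.6-fold lower (-4.36 ± 0.40 SE, adjusted p = 0.000274). Cd200r4 was the exception, at least 16.6-fold higher (4.46 ± 0.28 SE, adjusted p = 6.74e-05). Clec4a2, Clec4a3, Sirpb1a and Cd200r4 have close relatives, and their probe sets can cross-hybridise.

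Costimulatory and coinhibitory ligands had 9 of 17 members called lower and 2 higher (median -1.19, and -1.14, -1.79 and -0.54 in the 3 pairs). In the costimulatory list the 2 called higher became 1 without spleen NK array 1, and 0 without spleen NK array 2 or spleen CDC array 1. Cd86 was 20.3-fold lower (-4.34 ± 0.23 SE, adjusted p = 3.79e-05), and Cd80, the other B7 ligand, at least 6.62-fold lower (-3.01 ± 0.26 SE, adjusted p = 0.000218). Cd28, their receptor on T cells, read 9.99, 9.50 and 10.26 in NK and 5.16, 4.17 and 5.12 in CDC; it was at least 24.3-fold higher in NK (5.10 ± 0.31 SE, adjusted p = 5.54e-05). Cd40, which receives help from activated T cells, read 5.14, 5.33 and 5.29 in NK and 9.02, 9.35 and 10.73 in CDC and was at least 20.9-fold lower (-4.45 ± 0.33 SE, adjusted p = 0.000113). Cd83, a marker of mature dendritic cells, was 18.5-fold lower and Cd24a 15.3-fold lower. The members called higher were Tnfsf4, the ligand of OX40 (1.69 ± 0.45 SE), and Cd48, the ligand of 2B4 (0.92 ± 0.20 SE). Tnfsf4 lost its call without any 1 of spleen NK array 1, spleen NK array 2, spleen CDC array 1 and spleen CDC array 2 (adjusted p = 0.082 to 0.0988); Cd48 lost its call without any 1 of spleen NK array 1, spleen NK array 2 and spleen CDC array 1 (adjusted p = 0.0514 to 0.0701).

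Adhesion and trafficking genes went both ways. Of 26 integrins and adhesion molecules 8 were called higher and 5 lower, with a median of 0.30, and 0.30, 0.42 and 0.30 in the 3 pairs. In the adhesion list the 8 called higher became 5 without spleen NK array 2 or spleen CDC array 1, and the 5 called lower became 3 without spleen NK array 2, spleen CDC array 1 or spleen CDC array 2. Itga2, the gene for the NK marker CD49b, read 7.43, 7.18 and 6.95 in NK and 5.34, 4.71 and 4.87 in CDC and was at least 3.65-fold higher (2.21 ± 0.29 SE, adjusted p = 0.00144). Icam2, a ligand of LFA-1, was 9.54-fold higher and Itgal, the LFA-1 alpha chain, 3.62-fold higher, while Itgb2, its beta chain, was not called (0.23 ± 0.19 SE). Alcam, Cadm1 and Cd81 were 15-fold, 12.7-fold and 8.47-fold lower. Cadm1 is the ligand of the receptor encoded by Crtam, which was higher in NK. Among 10 chemokine receptors 5 were called higher and 3 lower. Cmklr1, a receptor for chemerin, read 8.69, 9.48 and 8.22 in NK and 4.89, 4.95 and 3.27 in CDC, and was at least 11.2-fold higher (4.43 ± 0.31 SE, adjusted p = 9.36e-05). Ccr9, a gut-homing receptor, was at least 9.59-fold lower (-3.75 ± 0.49 SE, adjusted p = 0.00154). Ccr7, which guides cells into lymph nodes, read 5.34, 3.12 and 6.22 in NK and 6.25, 8.22 and 9.17 in CDC and was called at -2.98 ± 0.67 SE. Ccr7 lost its call without either the lymph node NK array or the lymph node CDC array (adjusted p = 0.0651 to 0.0677). The count of 5 was 1 without spleen CDC array 1, 3 without spleen CDC array 2, and 2 without spleen NK array 2, the lymph node NK array or the lymph node CDC array.

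Of 24 sphingosine 1-phosphate and other G protein signalling genes 5 were called higher and 8 lower. In the G protein list the 5 called higher became 3 without spleen NK array 2. S1pr4, another lymphocyte receptor of this lipid, read 10.31, 11.03 and 10.72 in NK and 6.40, 7.09 and 7.07 in CDC, and was 14.3-fold higher (3.83 ± 0.28 SE, adjusted p = 0.000107). S1pr1, the receptor used by T and B cells, was called at 1.05 ± 0.27 SE, and S1pr1 lost its call without any 1 of spleen NK array 2, the lymph node NK array, spleen CDC array 1 and the lymph node CDC array (adjusted p = 0.0888 to 0.137). Ptger4, a prostaglandin E2 receptor, was 2.75-fold higher (1.46 ± 0.16 SE, adjusted p = 0.000615) and Ptger3, another one, at least 5.38-fold lower (-2.54 ± 0.33 SE, adjusted p = 0.00153). Gpr34, a receptor of lysophosphatidylserine, was at least 4.29-fold lower and Rgs10, which shortens G protein signals, 6.91-fold lower.

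All 8 tested GIMAP genes, small GTPases of lymphocytes that lie in 1 cluster, were called higher, with a median of 5.32, and 5.06, 6.74 and 4.58 in the 3 pairs. Gimap9 read 9.88, 10.77 and 9.999 in NK and 4.67, 2.85 and 4.11 in CDC, and Gimap6, which takes part in autophagy, 10.57, 10.46 and 10.42 in NK and 4.36, 3.30 and 5.23 in CDC. In both, all CDC arrays were under the filter level, and they were at least 30.0-fold and at least 36.1-fold higher. Gimap3, the member with the smallest difference, was 8.79-fold higher (3.14 ± 0.43 SE, adjusted p = 0.00183). In the RefSeq gene order these 8 formed the longest of 21 runs of 4 or more adjacent tested genes called the same way, 11 of them higher and 10 lower. Klre1, Klrd1, Klrk1 and Klrc1 formed another, as did Gpx8, Gzma, Gzmk and Snx18. H2-Ob, H2-Ab1, H2-Aa and H2-Eb1 were a run of lower genes, as were H2-DMa, H2-DMb2, Psmb9 and Tap1. Neighbours can cross-hybridise in these families, which was not tested.

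Endosomal and lipid genes were lower in NK more often than higher. Of 37 lysosome and endosome genes 22 were called lower and 1, Ctsd, higher (median -1.16, and -1.31, -1.09 and -0.89 in the 3 pairs). Plbd1, a phospholipase B-like protein, read 7.97, 6.00 and 6.82 in NK and 12.76, 12.87 and 12.84 in CDC; it was 59.4-fold lower (-5.89 ± 0.45 SE, adjusted p = 0.000125). Cd68, a lysosomal membrane protein of phagocytes, was 17.8-fold lower, Rab32 11.9-fold lower and Ctsz 9.96-fold lower. Ctsd lies in this list and in that of granule genes; Ctsl, a related protease, was not called, at 0.50 ± 0.50 SE. Of 30 lipid genes 11 were called lower and 2 higher (median -0.48, and -0.52, -0.31 and -0.67 in the 3 pairs). In the lipid list the 2 called higher became 1 without any 1 of the 6 arrays and with the replicate block. Cyp27a1, the sterol hydroxylase of mitochondria, read 5.32, 3.46 and 4.17 in NK and 10.13, 10.83 and 10.64 in CDC, and was at least 37.3-fold lower (-6.22 ± 0.47 SE, adjusted p = 0.000117). Abca3, a lipid transporter, was at least 21.6-fold lower, and Alox5ap, the partner of arachidonate lipoxygenase, 13.9-fold lower. Abca1, which exports cholesterol, read 8.74, 9.85 and 10.57 in NK and 5.99, 5.61 and 6.93 in CDC and was 11.7-fold higher (3.55 ± 0.31 SE, adjusted p = 0.000234). Dhcr7, the last enzyme of cholesterol synthesis, was at 0.67 ± 0.20 SE, and Dhcr7 lost its call without any 1 of the 6 arrays (adjusted p = 0.0782 to 0.161).

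Housekeeping lists were close between the cell types. Of 22 ribosomal protein genes 18 had a 95% interval within 1 log2 unit of 0 on either side, as did 26 of 29 oxidative phosphorylation genes, against 4724 of the 10916 tested genes. Eef1a1, an elongation factor, differed by -0.06 ± 0.12 SE, Actg1, an actin, by 0.01 ± 0.11 SE, and Tmsb4x, which binds actin monomers, by -0.06 ± 0.12 SE. Ptprc, the gene for CD45, carried by all leukocytes, read 13.02, 13.08 and 12.72 in NK and 12.83, 13.13 and 12.18 in CDC and differed by 0.23 ± 0.16 SE. None of these 4 was called. Eef1a1, Actg1 and Tmsb4x were named with their values known, so their small differences are no added support. In the ribosomal list 1 member, Rps19, was called (-0.76 ± 0.17 SE), and Rps19 lost its call without any 1 of spleen NK array 2, the lymph node NK array and the lymph node CDC array (adjusted p = 0.0616 to 0.0742). Among oxidative phosphorylation genes it was Cox8a (0.94 ± 0.21 SE), and Cox8a lost its call without any 1 of spleen NK array 1, the lymph node NK array, spleen CDC array 1 and the lymph node CDC array (adjusted p = 0.0535 to 0.0795). The 2 other probe sets of Cox8a differed by -0.12 and 1.75. The ribosomal median was -0.06, and -0.30 with values as deposited and -0.29 at the same 75th percentile.

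Glycolysis genes had 2 of 20 members called higher (10%) and 4 lower (20%), against 12.5% and 11.6% of all tested genes. In the glycolysis list the 2 called higher became 1 without spleen NK array 1 or spleen NK array 2, and 0 without spleen CDC array 1. Hexokinases differed by isoform. Hk2 read 6.89, 7.44 and 7.27 in NK and 9.26, 9.47 and 9.34 in CDC and was 4.45-fold lower (-2.15 ± 0.23 SE, adjusted p = 0.00054), while Hk1 read 10.26, 9.57 and 9.82 in NK and 8.49, 8.14 and 9.14 in CDC and was 2.46-fold higher (1.30 ± 0.29 SE, adjusted p = 0.0165). Hk1 lost its call without spleen CDC array 1 (adjusted p = 0.0525). Pfkfb3 and Pfkfb4, which set the level of a glycolysis activator, were 2.99-fold and 3.26-fold lower. Cell cycle genes had 3 of 35 called higher (8.57%) and 1 lower (2.86%), both under the shares of all tested genes, and the D cyclins split. In the cell cycle list the 1 called lower became 5 without spleen NK array 1, 3 without spleen CDC array 2, and 7 with the replicate block. Ccnd2 read 11.33, 11.75 and 11.75 in NK and 9.31, 10.02 and 8.02 in CDC and was 5.62-fold higher (2.49 ± 0.40 SE, adjusted p = 0.00384). Ccnd1 read 6.70, 8.38 and 6.48 in NK and 11.05, 11.30 and 10.06 in CDC and was 12.2-fold lower (-3.61 ± 0.40 SE, adjusted p = 0.000703). Cdkn2d, an inhibitor of their kinases, was 4.84-fold higher, and Mki67, a marker of dividing cells, was not called (-0.49 ± 0.64 SE, 95% interval -1.99 to 1.01).

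Survival genes also split by member, with 5 of 18 called higher and 5 lower. In the survival list the 5 called lower became 3 without spleen NK array 2, the lymph node NK array, spleen CDC array 2 or the lymph node CDC array. Bcl2, which blocks apoptosis, read 10.43, 10.03 and 10.63 in NK and 7.22, 7.20 and 6.84 in CDC, and was 9.71-fold higher (3.28 ± 0.24 SE, adjusted p = 0.000106). Bcl2l11, the BH3-only killer Bim, was 4.39-fold higher (2.14 ± 0.27 SE, adjusted p = 0.00128). Pmaip1 and Bmf, the BH3-only genes for Noxa and Bmf, were 15.2-fold and 12.1-fold lower. Of 27 interferon-stimulated genes 4 were called higher (14.8%) and 5 lower (18.5%), against 12.5% and 11.6% of all tested genes. Among them Socs3, a feedback inhibitor, was 8.3-fold higher and Gbp2 4.01-fold higher, while Oas2 was at least 5.29-fold lower and Mx1 3.63-fold lower. Of 44 cytoskeletal genes 10 were called higher and 14 lower. In the cytoskeletal list the 10 called higher became 6 without spleen NK array 2. With the mean of all probe sets 5 cytoskeletal genes were called higher. Fscn1, which bundles actin in dendrites, read 5.66, 7.09 and 8.33 in NK and 10.18, 10.52 and 12.80 in CDC and was 17.6-fold lower (-4.14 ± 0.37 SE, adjusted p = 0.000247). Marcks, a membrane-actin linker, was 24.4-fold lower and Arhgap22 at least 9.82-fold lower, while Arhgef3 was 6.42-fold higher and Rac2 2.94-fold higher.

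**Figure D4:**
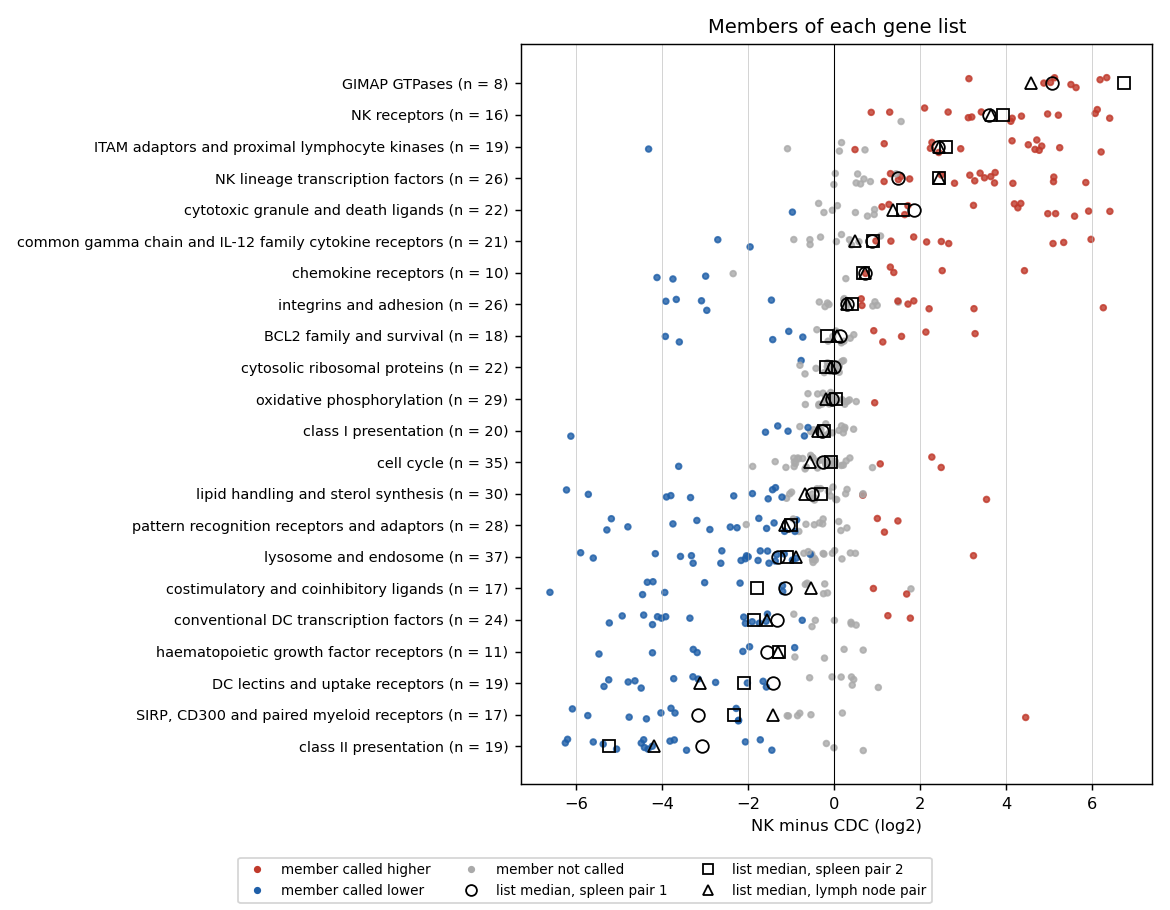
NK minus CDC on the log2 scale (x axis) for the tested members of 22 gene lists, ordered by median; small points are members, red where called higher in NK, blue called lower and grey not called, and open symbols are the list medians in the 3 pairs. The medians of the 3 pairs lie on the same side of 0 in the lists at either end, from 5.32 for GIMAP genes to -4.22 for class II genes, over all 6 arrays.

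The organs were compared next, by testing whether NK minus CDC differed between lymph node and spleen. Of the 10916 genes 0 (0%) were called by limma, with 833 at an unadjusted p under 0.05 and a smallest adjusted p of 0.249. With the replicate number as a block limma called 2 genes, Adamdec1 and Dtx1 (adjusted p = 0.0486 each). This test rests on 1 lymph node array of each cell type and 2 residual degrees of freedom, so it does not show the organs to be alike. The genes with the widest gaps are therefore given as values. Pglyrp2, a peptidoglycan amidase, read 8.01, 8.03 and 8.23 in NK and 6.83, 6.76 and 2.92 in CDC, with pair differences of 1.18, 1.27 and 5.30. The lymph node CDC array was far below the other 5, and Pglyrp2 was called over both organs. Adamdec1, a disintegrin-like protease, read 3.83, 4.23 and 7.87 in NK and 8.25, 9.31 and 5.67 in CDC, and Ccr6, a receptor for Ccl20, 5.98, 6.44 and 10.09 in NK and 9.61, 10.45 and 9.49 in CDC. In both, NK was below CDC in the 2 spleen pairs and above in the lymph node pair. Dtx1, a Notch regulator, had pair differences of -1.61, -1.64 and 2.56, and Ctla4, an inhibitory receptor, -1.21, -2.04 and 3.20. The reverse order was seen in Clmn (2.27, 2.60 and -1.81), in Gadd45b, a stress gene (3.01, 1.51 and -2.82), and in Cdkn1a, the gene for p21 (0.43, 1.74 and -3.32). T cell genes summed to 5096, 3187 and 10239.7 intensity units on the NK arrays. The part of T cell RNA in these gaps, those of Ccr6, Dtx1 and Ctla4 included, was not tested. Pglyrp2 lost its call without either spleen NK array 2 or spleen CDC array 1 (adjusted p = 0.0531 to 0.0602). Pair differences of all tested genes had an SD of 1.21, 1.34 and 1.29.

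**Figure D5:**
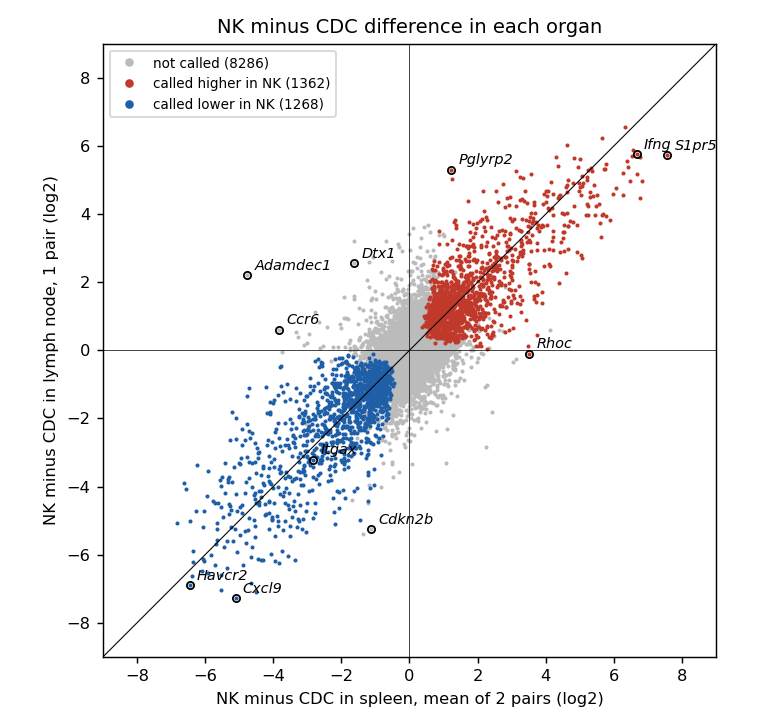
NK minus CDC in spleen (x axis, mean of 2 pairs, log2) against NK minus CDC in lymph node (y axis, 1 pair, log2) for 10916 tested genes, coloured by the call over both organs; the diagonal marks equal differences and circled genes are named. Called genes lie along the diagonal in the upper right and lower left, and Adamdec1 (-4.76 in spleen and 2.20 in lymph node) lies far above it.

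Markers of other cell types were read in the same arrays. Of 14 tested T cell genes 7 were called higher in NK and 1, Cd4, lower, with summed intensities of 3187 to 10239.7 intensity units on the NK arrays and 1558 to 2273 on the CDC arrays. In the T cell list the 1 called lower became 2 without spleen NK array 2 or spleen CDC array 2, and 3 without the lymph node NK array or the lymph node CDC array. Cd3g, a chain of the T cell receptor complex, read 7.06, 7.49 and 9.31 in NK and 4.41, 4.30 and 5.04 in CDC; it was highest on the lymph node NK array and was at least 6.25-fold higher (3.37 ± 0.35 SE, adjusted p = 0.000482). Thy1 and Cd27, which NK cells can express, were at least 19.1-fold and at least 13-fold higher. Cd4, which some dendritic cells carry, read 4.40, 4.13 and 6.03 in NK and 8.81, 9.90 and 8.02 in CDC and was at least 10.3-fold lower (-4.05 ± 0.62 SE, adjusted p = 0.0032). Cd28, Bcl11b, Lef1, Prkcq, Lat and Zap70, given above as higher in NK, are also T cell genes, and the part of T cell RNA in their levels was not tested. Of 12 B cell genes 6 were called lower, and 3 when any 1 spleen array was left out. Cd79b, which marks B cells, read 5.34, 4.97 and 5.73 in NK and 5.68, 6.61 and 5.61 in CDC and was not called. Of 15 macrophage and monocyte genes 4 were called lower and 2 higher. In the macrophage list the 2 called higher became 1 without spleen NK array 1, and 0 without spleen CDC array 1, and the 4 called lower became 8 without spleen NK array 2. Adgre1, a macrophage surface antigen, read 6.40, 7.32 and 7.73 in NK and 10.17, 10.85 and 9.87 in CDC, and was 8.84-fold lower (-3.14 ± 0.40 SE, adjusted p = 0.00132). C1qa, the other macrophage marker, read 3.30, 5.82 and 3.34 in NK and 4.88, 4.86 and 6.91 in CDC. Its NK level was above CDC in spleen pair 2 and below in the other pairs, and it was not called. The part of macrophage RNA in the lower myeloid genes was not tested.

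Of 12 plasmacytoid dendritic cell genes 1 was called higher and 3 lower, and Siglech, their defining marker, read 4.79, 5.37 and 6.16 in NK and 5.64, 5.85 and 6.44 in CDC. It was low on all 6 arrays. In the plasmacytoid list the 1 called higher became 0 without any 1 of the 6 arrays. Of 4 neutrophil genes 1 was called lower, Csf3r (-0.92 ± 0.26 SE), and Csf3r lost its call without any 1 of the 6 arrays (adjusted p = 0.0783 to 0.134). S100a8, a neutrophil calcium-binding protein, read at most 6.77. Of 4 basophil and mast cell genes 1 was called higher, Ms4a2 (2.95 ± 0.69 SE), and 1 lower, Kit. In the basophil list the 1 called higher became 3 without spleen NK array 1, 2 without spleen NK array 2 and with the replicate block, and 0 without the lymph node NK array, spleen CDC array 1 or the lymph node CDC array. Ms4a2 lost its call without any 1 of the lymph node NK array, spleen CDC array 1 and the lymph node CDC array (adjusted p = 0.0642 to 0.0879). Mcpt8, a basophil protease under the mean level of the filter, read 5.38, 8.31 and 6.25 on the NK arrays and at most 4.28 on the CDC arrays. Of 7 erythroid and platelet genes 2 were called higher, Car2 (12.8-fold) and Gp1bb (at least 5.23-fold), and 1 lower. In the erythroid and platelet list the 1 called lower became 0 without spleen NK array 1, spleen NK array 2, spleen CDC array 1 or spleen CDC array 2. Hba-a1, the erythroid marker, was under the mean level of the filter and read 3.59, 5.54 and 4.89 in NK and 5.24, 5.36 and 4.82 in CDC. Pf4, a platelet chemokine, read 5.95, 9.60 and 6.76 in NK and 5.49, 5.82 and 6.84 in CDC. Spleen NK array 2 was the highest in Pf4 and in Mcpt8. Of 7 plasma cell genes 2 were called higher and 2 lower. In the plasma cell list the 2 called higher became 1 without spleen NK array 1, spleen NK array 2 or the lymph node NK array, and the 2 called lower became 1 without any 1 of the 6 arrays. Of 5 stromal and endothelial genes none was called in either direction. Col1a1, the stromal collagen, read at most 5.30.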

How the data were processed

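Expression was measured on Affymetrix arrays in freshly sorted mouse cells, and per the labels there are 3 NK and 3 CDC arrays. The deposited table holds linear signal intensity per probe set, scaled by the authors so that each array's trimmed mean is 150.0; the software and the number of animals are not given in the sources used here. Of 45101 probe sets, 64 controls, 932 with several gene symbols and 9160 with none were left out. Log2 of intensity plus 6.49, the 20th percentile of all values, was quantile normalized over the 9 arrays, and each of 18193 genes took its single-symbol probe set with the highest mean. Genes whose mean lay under the 40th percentile were left out, and 10916 were tested.

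Tests used limma 3.58.1 in R 4.3.3 (lmFit, eBayes with a trend) on the 6 arrays with cell type and organ as terms, 3 residual and 4.38 prior degrees of freedom, two-sided p-values and Benjamini-Hochberg adjustment over all tested genes. The lymph node has 1 array of each cell type, whose spread is taken to be like that in spleen. The organ difference was tested with the 4 groups. The fit was tested on simulated data. The number of arrays limits the precision.

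The members and the gene lists were chosen with earlier results of these data known. Named genes were the 12 largest called differences in each direction with 1 sign in all pairs, up to 6 called members of each list and those against its majority, 29 tested genes fixed by name of which the text gives a part, the 8 highest genes with an interval within 1 log2 unit, and the 6 widest organ differences each way; further list members are named after their values were seen. Alternatives covered the replicate number as a block, other arrays, scalings, offsets, filters, probe set rules and spread settings, a 2-fold minimum and leaving out each array. Promoters came from RefSeq windows on GRCm38.p6, and plots from Python 3.11.15 with pandas 2.3.3 and matplotlib 3.10.9.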

Additional observations from a re-analysis of the deposited data

How the results depend on the processing

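The count of 2630 genes called between NK and CDC stayed within 1.5 times under the other fits, ranging from 1920 with spleen arrays alone to 2884 with the replicate block, except with a 2-fold minimum, which called 760 (344 higher, 416 lower). Leaving out 1 array gave 1757 to 2208. Of the called genes, 1338 were called under each alternative but the 2-fold minimum, and 1437 whichever array was left out. The labels do not say what the replicate number stands for; equally numbered spleen NK and CDC arrays were alike in Xist and Eif2s3y and their deviations correlated at 0.41 across genes, and with the replicate block 2586 of the 2630 genes remained called. For the organ difference the replicate block called 2 genes, Adamdec1 and Dtx1 (adjusted p = 0.0486 each), and the other fits 0. Same-sign genes numbered 5603 with the spleen arrays matched crosswise, 6398 at the same 75th percentile and 6455 as deposited. With the mean of all probe sets, Anxa1 turned to -0.38 and Rhof to -0.017, neither called; the cause was not tested. Of 5318 alternative values of the 257 named genes, 428 lost the call and 42 gained it. The median over cytoskeletal genes moved to -0.12 as deposited and -0.11 at the same 75th percentile, and that over chemokine receptors to 0.53 at the latter. Genes near the filter level have little signal over background, and 1 lymph node array per cell type limits the organ test.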
